A study of Mus musculus with 32 samples.

Results

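The levels of 9 genes that mark fat cells were read out in mouse quadriceps muscle: Adipoq, Lep, Cfd and Retn, which encode secreted proteins, Plin1, Plin4 and Cidec, which encode proteins of the lipid droplet, Fabp4, a fatty acid binding protein, and Pparg, a nuclear receptor. They were chosen by gene name, and each of the 9 matched 1 of 53801 gene identifiers in every library. Adipoq, Lep, Cfd, Retn, Plin1 and Cidec varied several-fold between mice of most groups, mostly together, Fabp4, Pparg and Plin4 varied less, and none of the 9 passed the test for a difference between genotypes, ages or sexes. At equal Adipoq, calls were made for Lep and Cfd with genotype at 25 weeks, for Lep and Retn with sex, for Lep and Cfd with the change of the sex difference with age, and for Fabp4 and Pparg with age in Col6a2-/- mice. Apart from that of Fabp4, these calls depended on the gene used as reference, on a filter or scaling, or on single libraries, and the share of members called with age, 2 of 8, was below the 33.9% of all genes called in the same model.

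The libraries came from wild type (WT) mice and from mice homozygous for the Col6a2 allele tm1(KOMP)Vlcg (Col6a2-/-), which lack the α2 chain of collagen VI, a protein of the matrix around muscle fibres. The allele is a whole-body one, made in a C57BL/6N strain and backcrossed for 5 generations onto C57BL/6J, and both genotypes were bred from heterozygous parents and were otherwise untreated. Mice were 5 or 25 weeks old, female or male, with 4 mice in each of the 8 groups and 32 libraries in all. RNA was taken from sections of snap-frozen quadriceps, a mixture of all cells in the cut.

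Fat cells store triglyceride in 1 large droplet coated by perilipins, and they release hormones into the blood. Pparg drives their differentiation together with the C/EBP factors, and many of the genes that mark them are its targets. In skeletal muscle, fat cells lie between the fibres and around the fascicles, and they arise from Pdgfra-expressing progenitors of the interstitium. Adipoq encodes adiponectin, Lep leptin, a signal of fat stores, Cfd complement factor D (adipsin), and Retn resistin. Fabp4 is also made by capillary endothelium and some macrophages, and Plin4 also by muscle fibres.

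The promoters of 4 secreted members are shown because Adipoq, Cfd and Retn moved almost together from mouse to mouse, while Lep followed them less closely. Each stretch is the 150 bases before a RefSeq start site (GRCm38.p6), and 8 of the 9 members were in the RefSeq table. Capitals mark the motifs that were searched on both strands: the C/EBP palindrome TTGCGCAA, the nuclear-receptor recognition element AGGTCA, its direct repeat with any 1 base between (the DR1 element), TATAAA and CCAAT.
Adipoq chr16:23146386-23146535 (+): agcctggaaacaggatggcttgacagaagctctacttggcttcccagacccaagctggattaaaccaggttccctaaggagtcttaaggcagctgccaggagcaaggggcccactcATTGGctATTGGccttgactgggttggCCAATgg
Lep chr6:29060071-29060220 (+): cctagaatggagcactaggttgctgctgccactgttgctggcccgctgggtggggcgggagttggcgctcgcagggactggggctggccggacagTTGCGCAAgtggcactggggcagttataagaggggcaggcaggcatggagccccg
Cfd chr10:79890703-79890852 (+): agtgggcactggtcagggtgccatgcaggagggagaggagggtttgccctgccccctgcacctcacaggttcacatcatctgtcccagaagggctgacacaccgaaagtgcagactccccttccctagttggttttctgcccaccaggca
Retn chr8:3655620-3655769 (+): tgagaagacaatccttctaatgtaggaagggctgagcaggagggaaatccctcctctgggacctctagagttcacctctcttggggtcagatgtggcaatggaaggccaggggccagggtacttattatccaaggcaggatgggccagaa
The Adipoq stretch holds 3 CCAAT boxes, in either orientation, and the Lep stretch holds 1 C/EBP palindrome. None of the 5 motifs is present in the Cfd and Retn stretches. Over 32851 RefSeq windows of the 250 bases before a start, the C/EBP palindrome was present in 0.164%, CCAAT in 33.8%, AGGTCA in 14% and TATAAA in 12.4%. The DR1 element was present in 0.0335% of the windows and in none of the windows of the 8 members. A match is a description of the letters and not of a bound site.

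Levels are given as TPM, a share of all transcripts scaled for transcript length, so that genes can be set side by side. Over the 32 libraries the median was 141 TPM for Fabp4, 130 for Cfd, 38.9 for Plin4, 30.8 for Adipoq, 15.1 for Cidec, 11.0 for Retn, 7.31 for Plin1, 3.25 for Pparg and 1.24 for Lep. No member was listed at 0 in any library. The highest library exceeded the lowest 165-fold for Lep, 48.8-fold for Retn, 35.0-fold for Cfd, 27.6-fold for Plin1, 25.9-fold for Adipoq and 22.2-fold for Cidec. The range was smaller for Pparg (6.73-fold), Fabp4 (4.15-fold) and Plin4 (3.45-fold).

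On GRCm38, with the positions given in the deposited tables, the secreted members lie at chr16:23146536-23158028 (Adipoq, ENSMUSG00000022878, plus strand), chr6:29060220-29073877 (Lep, ENSMUSG00000059201, plus), chr10:79890853-79892655 (Cfd, ENSMUSG00000061780, plus) and chr8:3655770-3660110 (Retn, ENSMUSG00000012705, plus). The droplet genes lie at chr7:79720218-79732903 (Plin1, ENSMUSG00000030546, minus strand), chr17:56100591-56109803 (Plin4, ENSMUSG00000002831, minus) and chr6:113424634-113435760 (Cidec, ENSMUSG00000030278, minus). Fabp4 (ENSMUSG00000062515) lies at chr3:10204088-10208576 on the minus strand and Pparg (ENSMUSG00000000440) at chr6:115360951-115490399 on the plus strand. Plin4 overlaps Hdgfl2 and Pparg overlaps Gm44079, each on the other strand. Whether the counting used strand is not given in the sources used here, so reads in those overlaps are uncertain.

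The libraries themselves were checked once. Col6a2 was at 6.60 to 51.2 TPM in WT and at 0 to 0.171 TPM in Col6a2-/- libraries. Muscle fibre genes were abundant in every library, with Acta1 at 4534 to 9450 TPM and Ckm at 2174 to 4070 TPM. Read counts were not used here, and the depth inferred from coverage and FPKM spanned 6.78 to 13.7 Gb, a relative measure only. Mitochondrial genes took 31.9 to 46.9% of all TPM and Rn7s transcripts 20.8 to 30.5%. No pair of libraries held identical values.

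**Figure D1:**
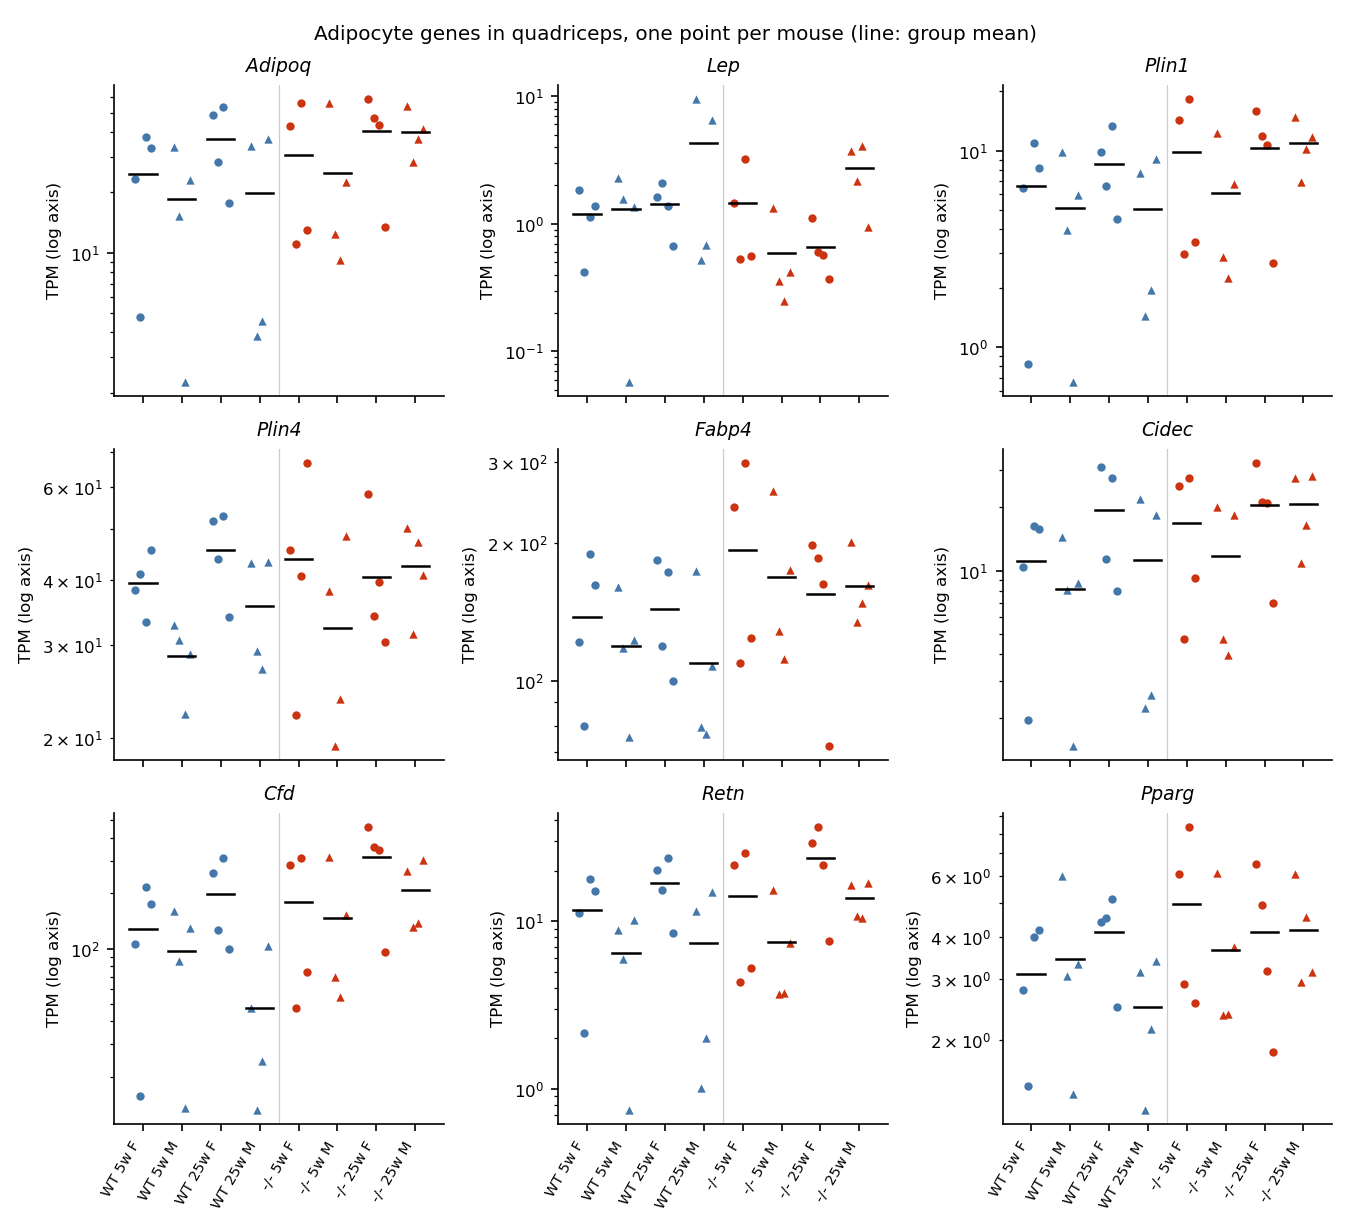
Level of each of the 9 genes (TPM, log axis) in the 8 groups of 4 mice, with 1 point per mouse and a line at the group mean. Points of 1 group are spread widely, for Adipoq from 2.27 to 33.6 TPM in 5-week WT males, and every pair of groups overlaps for Adipoq. Some pairs do not overlap for other genes, and how often this occurs over all tested genes was not counted. Cfd in 25-week males is at 13.1 to 104 TPM in WT and 131 to 304 TPM in Col6a2-/- mice. Plin4 in 5-week WT mice is at 22.2 to 32.8 TPM in males and 33.2 to 45.6 TPM in females.

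Adiponectin shows the spread. In WT libraries, in replicate order, Adipoq was at 23.2, 4.76, 37.6 and 33.2 TPM in 5-week females and at 33.6, 15.2, 2.27 and 23.0 TPM in 5-week males. At 25 weeks it was at 48.6, 28.4, 53.5 and 17.7 TPM in WT females and at 34.1, 3.84, 4.55 and 37.1 TPM in WT males. In Col6a2-/- libraries it was at 42.7, 11.1, 56.0 and 12.9 TPM in 5-week females, 56.0, 12.4, 9.21 and 22.6 TPM in 5-week males, 58.7, 47.1, 43.4 and 13.5 TPM in 25-week females and 53.8, 28.4, 37.0 and 41.5 TPM in 25-week males. The group means ran from 18.5 ± 13.2 TPM (SD, n = 4) in 5-week WT males to 40.7 ± 19.3 TPM in 25-week Col6a2-/- females, and every pair of groups overlapped. In order, the other means were 19.9 ± 18.2 in 25-week WT males, 24.7 ± 14.6 in 5-week WT females, 25.1 ± 21.4 in 5-week Col6a2-/- males, 30.7 ± 22.2 in 5-week Col6a2-/- females, 37.0 ± 16.9 in 25-week WT females and 40.2 ± 10.6 in 25-week Col6a2-/- males.

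Adipoq was under 5 TPM, a limit chosen after the values were seen, in 4 of the 16 WT libraries and in 0 of the 16 Col6a2-/- libraries. Those 4 were replicate 2 of the 5-week WT females, replicate 3 of the 5-week WT males and replicates 2 and 3 of the 25-week WT males. In that order, Cfd was at 15.7, 13.5, 13.1 and 24.3 TPM and Plin1 at 0.819, 0.666, 1.44 and 1.95 TPM. Fabp4 was at 79.8, 75.5, 79.6 and 76.7 TPM and Plin4 at 41.0, 22.2, 29.3 and 27.0 TPM in the same libraries. In bulk muscle, fewer fat cells and less RNA per fat cell cannot be told apart.

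The spread within groups was large against that of other genes. On the log2(TPM + 1) scale, the residual SD within groups was 1.23 for Cfd, larger than for 99.7% of the 12817 tested genes. It was 1.15 for Adipoq, 1.09 for Cidec, 1.04 for Retn, 0.98 for Plin1, 0.71 for Lep, 0.53 for Fabp4, 0.53 for Pparg and 0.40 for Plin4. The median over all tested genes was 0.20. Differences between the 8 groups held 18.3 to 39.4% of each member's variance, against a median of 42.2% over all tested genes. These shares are not adjusted for the number of groups, so part of each arises without any group effect.

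**Figure D2:**
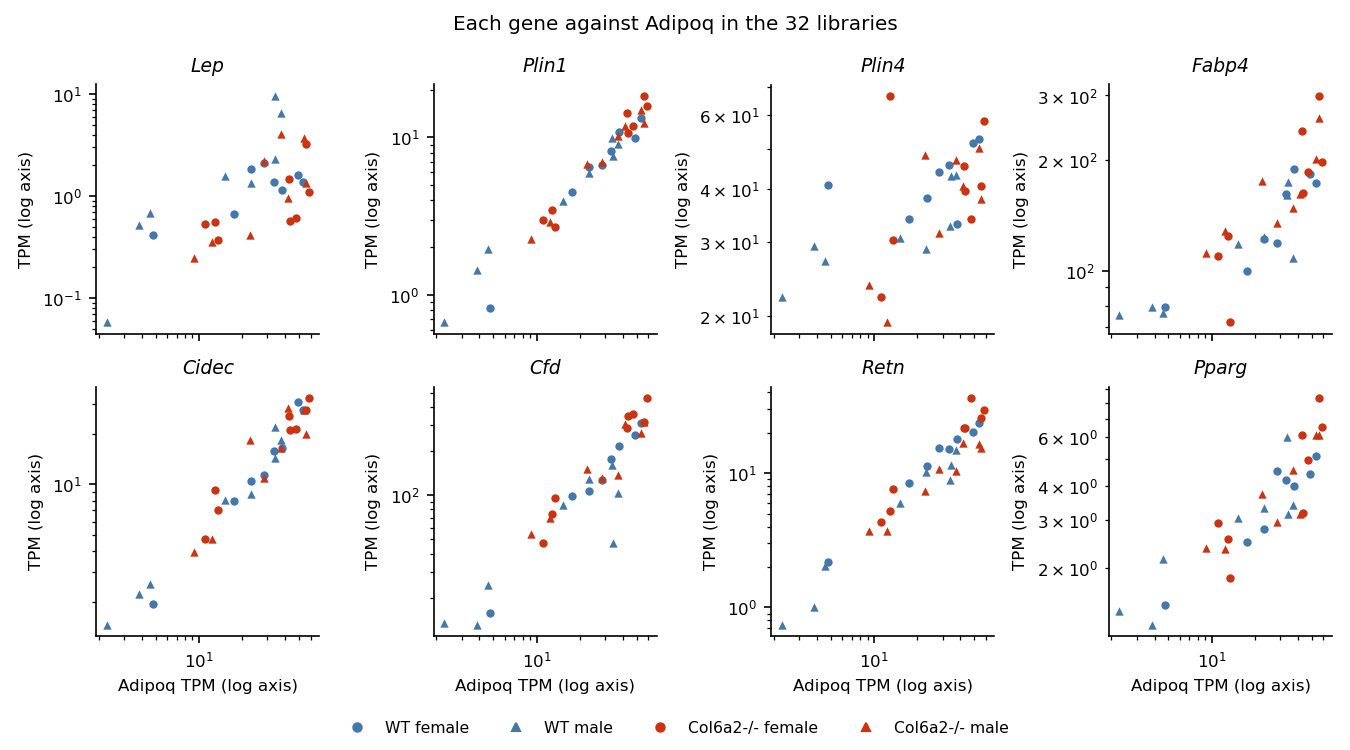
TPM of each of the other 8 members against TPM of Adipoq (both axes log), 1 point per library. Plin1, Retn, Cidec and Cfd follow Adipoq closely and Plin4 the least.

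Members rose and fell together between mice of 1 group. After group means were removed, the log2 level of Plin1 followed that of Adipoq over 32 libraries with r = 0.979 (rho = 0.978), and without the 2 libraries farthest from the median r was 0.975. Retn gave r = 0.979 (rho = 0.971), Cidec 0.965 (0.944) and Cfd 0.957 (0.950). Fabp4 gave 0.912 (0.912), Pparg 0.896 (0.888) and Lep 0.821 (0.827). For these 7 genes the permutation p of r, before adjustment over the 8 relations, was 1e-05, the smallest that 100000 permutations can give. Without the 2 libraries, r was 0.973 for Retn, 0.959 for Cidec, 0.944 for Cfd, 0.910 for Fabp4, 0.875 for Pparg and 0.803 for Lep.

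Plin4 followed least, with r = 0.538 (rho = 0.604; permutation p = 0.00442 and 0.00194) and r = 0.57 without the 2 libraries. Among all 36 pairs of members, r ran from 0.467 between Lep and Plin4 to 0.979, with a median of 0.881, and exceeded 0.9 in 14 pairs. The 2 libraries left out were replicate 3 of the 5-week WT males and replicate 2 of the 5-week WT females, and the relations held without them.

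The genes outside the list whose within-group pattern was most like the mean of the 9 members were Cdo1 (cysteine dioxygenase, r = 0.975), Serpina3c (0.958), Slc36a2 (0.958), Lipe (hormone-sensitive lipase, 0.956), Tusc5 (0.953), Mrap (0.950), Prkar2b (0.949), Cebpa (0.949), Acp5 (0.948) and Car5b (0.947), each over 32 libraries. Among the tested genes outside the 9 members (12817 with the members), 76 exceeded r = 0.8 and 117 exceeded 0.7. The 10 macrophage markers gave r from -0.12 (Itgam) to 0.19 (C1qb), with Adgre1 at 0.12 and Lyz2 at 0.062. The 11 endothelial markers gave r from 0.13 (Kdr) to 0.55 (Ptprb), with Pecam1 at 0.24. These values share their libraries and are given as a description.

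The first comparison asked whether the members differ with loss of Col6a2 at 5 weeks. With limma on log2(TPM + 1) and Benjamini-Hochberg adjustment over all tested genes, 0 of 9 members passed an adjusted p of 0.05, against 25.4% of all tested genes, and 0 of 9 had an unadjusted p under 0.05. Of the 9 estimates, 8 were higher in Col6a2-/- mice, with a median log2 difference of 0.36 against 0.15 over all genes. Fabp4 was at 75.5 to 189 TPM in WT (median 123, n = 8) and at 110 to 299 TPM in Col6a2-/- mice (median 152), and the groups overlapped. Its log2 difference was 0.45 (SE 0.25, 95% interval -0.056 to 0.95, adjusted p = 0.179).

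Cfd gave 0.64 at 5 weeks (interval -0.51 to 1.79), Cidec 0.50 (-0.53 to 1.52), Adipoq 0.41 (-0.67 to 1.48) and Plin1 0.36 (-0.56 to 1.28). Pparg gave 0.29, Retn 0.24, Plin4 0.074 and Lep -0.20. When 1 library was left out, the estimates ran from 0.23 to 0.89 for Cfd, 0.20 to 0.72 for Cidec, 0.048 to 0.62 for Adipoq, 0.066 to 0.55 for Plin1, 0.16 to 0.42 for Pparg and -0.055 to 0.44 for Retn, each lowest without replicate 2 of the WT females or replicate 3 of the WT males. Median-of-ratios scaling gave 0.43 for Cfd, 0.32 for Cidec, 0.24 for Fabp4, 0.21 for Adipoq and 0.20 for Plin1. It gave 0.13 for Pparg, 0.065 for Retn, -0.13 for Plin4 and -0.28 for Lep. The intervals leave room for more than a doubling of Adipoq, Plin1, Cidec, Cfd and Retn as well as for a fall. Pparg was at 1.39 to 6.02 TPM in WT (median 3.19) and at 2.35 to 8.36 TPM in Col6a2-/- mice (median 3.32).

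At 25 weeks 0 of 9 members passed the same limma test, against 4.70% of all tested genes, and 1 of 9, Cfd, had an unadjusted p under 0.05. Again 8 of 9 estimates were higher in Col6a2-/- mice, with a median of 0.67 against 0.082 over all genes. The exact permutation test within sex, run on each gene over 4900 splits, also passed 0 of 9 members at either age after adjustment over all genes. At 25 weeks Cfd passed with array weights (1.60, adjusted p = 0.0232) and with a separate fit per age (1.51, adjusted p = 0.0313).

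Cfd had the widest separation at 25 weeks. In WT females it was at 259, 126, 311 and 98.9 TPM and in WT males at 47.5, 13.1, 24.3 and 104 TPM. In Col6a2-/- females it was at 460, 358, 344 and 95.9 TPM and in Col6a2-/- males at 265, 131, 137 and 304 TPM. All 4 Col6a2-/- males were above all 4 WT males, while the females overlapped. The share of all tested genes that separate in this way was not counted, so the separation is given as values only. The log2 difference over both sexes was 1.51 (SE 0.56, interval 0.36 to 2.66, adjusted p = 0.123).

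The estimates of the other secreted members at 25 weeks were 0.82 for Retn (interval -0.16 to 1.80), 0.81 for Adipoq (-0.26 to 1.89) and -0.32 for Lep (-0.99 to 0.34). The droplet genes gave 0.68 for Cidec, 0.67 for Plin1 and 0.034 for Plin4, and Fabp4 and Pparg gave 0.33 and 0.26. Over the alternative settings, left-out libraries included, Lep ran from -0.54 to -0.077 and Cidec from 0.45 to 0.92. Fabp4 ran from 0.20 to 0.50 and Pparg from 0.15 to 0.385, and none of these passed. Plin1 was at 1.44 to 13.3 TPM in WT (median 7.14) and at 2.69 to 15.8 TPM in Col6a2-/- mice (median 11.3). Cidec was at 2.22 to 31.0 TPM in WT (median 14.9) and at 7.03 to 32.6 TPM in Col6a2-/- mice (median 21.2). Plin4 was at 27.0 to 52.8 TPM (median 43.1) and at 30.4 to 58.1 TPM (median 40.2). The genotypes overlapped for each of the 3 droplet genes.

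**Figure D3:**
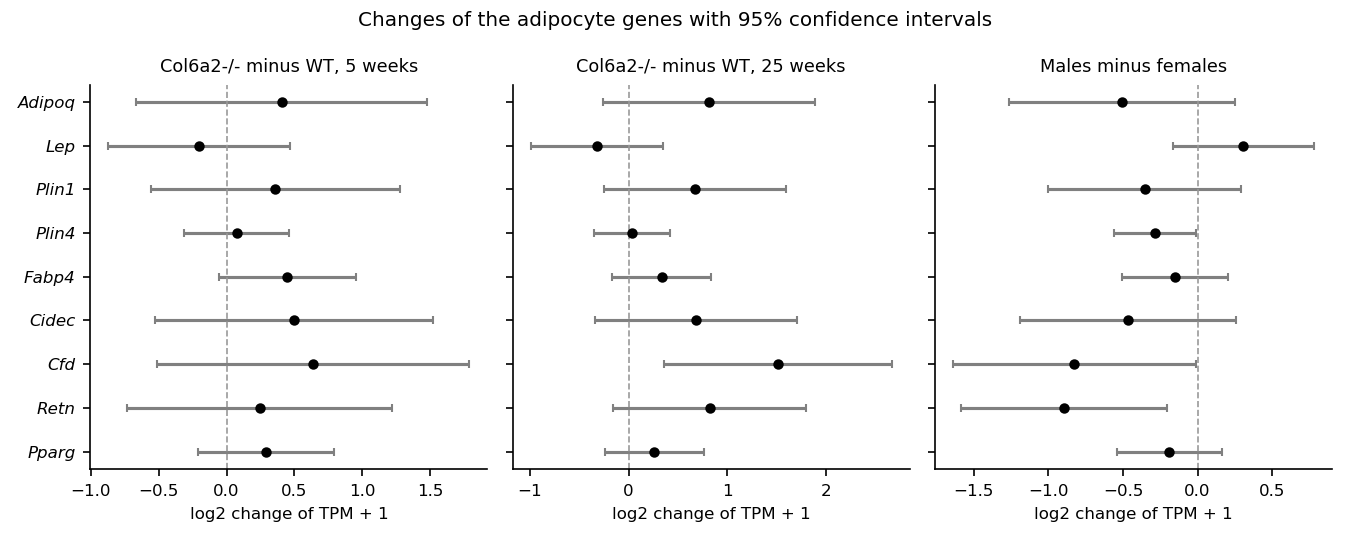
Log2 difference of each member with its 95% interval for Col6a2-/- minus WT at 5 weeks, the same at 25 weeks, and males minus females. Most intervals span 0, and those of Cfd at 25 weeks and of Cfd, Retn and Plin4 between the sexes do not, though none passed the adjusted test.

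Within sexes, 0 of 9 members passed in 5-week females (12.9% of all tested genes), 5-week males (5.03%), 25-week females (0.00780%) and 25-week males (3.03%). An unadjusted p under 0.05 was reached by 0, 0, 0 and 2 members in that order. The 2 were Cfd, with a log2 difference of 2.42 (SE 0.80, interval 0.79 to 4.05, adjusted p = 0.0868), and Adipoq, with 1.54 (SE 0.74, interval 0.026 to 3.06, adjusted p = 0.244), both in 25-week males. In limma with array weights, Cfd (2.59, adjusted p = 0.00978) and Adipoq (1.88, adjusted p = 0.0440) passed in these males. Cfd also passed there with a separate fit per age (2.42, adjusted p = 0.0200). In 25-week males the median over the members was 1.21, against 0.14 over all genes, and in 25-week females 0.079 against 0.030. The difference of the genotype effect between the sexes passed for 0 of 9 members (0.0156% of all genes; 0 with an unadjusted p under 0.05). Replicates 2 and 3 of the 25-week WT males, both low in Adipoq, are in the male comparison.

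With age, 0 of 9 members passed in WT (19.8% of all tested genes) and 0 of 9 in Col6a2-/- mice (34.2%), and 0 had an unadjusted p under 0.05 in either. From 5 to 25 weeks the median over the members was 0.27 in WT, against -0.076 over all genes, and 0.58 in Col6a2-/- mice, against -0.14. Retn had the largest estimate in Col6a2-/- mice, 0.91 (interval -0.071 to 1.88, adjusted p = 0.143), followed by Cfd with 0.88 and Adipoq with 0.75. The genotype effect differed between the ages for 0 of 9 members (0.492% of all genes; 0 with an unadjusted p under 0.05).

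Between the sexes, 0 of 9 members passed (3.05% of all tested genes) and 3 had an unadjusted p under 0.05. Of the 9 estimates, 8 were lower in males, and Lep was higher. Retn was at 2.16 to 36.4 TPM in females (median 16.6, n = 16) and at 0.746 to 16.9 TPM in males (median 9.54), and the sexes overlapped. Its log2 difference was -0.89 (SE 0.34, interval -1.58 to -0.20, adjusted p = 0.193). Cfd gave -0.83 (adjusted p = 0.368) and Plin4 -0.28 (adjusted p = 0.352). In limma with array weights, Cfd (-1.43, adjusted p = 0.0119), Retn (-1.38, adjusted p = 0.00477) and Plin4 (-0.39, adjusted p = 0.0217) passed.

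The highest leptin levels were in 25-week males. At 5 weeks Lep was at 1.85, 0.418, 1.13 and 1.38 TPM in WT females, at 2.28, 1.56, 0.0579 and 1.35 TPM in WT males, at 1.47, 0.528, 3.23 and 0.555 TPM in Col6a2-/- females and at 1.34, 0.357, 0.250 and 0.420 TPM in Col6a2-/- males. At 25 weeks it was at 1.61, 2.10, 1.37 and 0.666 TPM in WT females and at 9.56, 0.520, 0.687 and 6.54 TPM in WT males. In 25-week Col6a2-/- mice it was at 1.10, 0.604, 0.566 and 0.372 TPM in females and at 3.73, 2.18, 4.08 and 0.949 TPM in males. The 4 highest Lep libraries were all from 25-week males, 2 WT and 2 Col6a2-/-, and the sexes overlapped at both ages. The change of the sex difference from 5 to 25 weeks was 1.14 (SE 0.46, interval 0.20 to 2.09, adjusted p = 0.123), and 0 of 9 members passed that comparison (3.43% of all genes; 1 with an unadjusted p under 0.05). Lep was at or above 1 TPM in 18 libraries, so its differences on the log2(TPM + 1) scale understate the change in TPM.

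Since most of the variation was shared, the members were also compared at equal Adipoq, with log2(TPM + 1) of Adipoq as a covariate in the limma model, a choice made after the values were seen. This assumes 1 slope on Adipoq for all groups, and a difference means only that a gene and Adipoq changed unequally. Of the 8 other members, 2 passed for genotype at 25 weeks (2.55% of all tested genes), 2 for age in Col6a2-/- mice (33.9%), 2 for sex (2.95%) and 2 for the change of the sex difference with age (3.28%). None of the 8 passed for genotype at 5 weeks (22.9%), for age in WT (20.3%) or for genotype in 5-week females (11.7%), 5-week males (4.49%), 25-week females (0.0312%) and 25-week males (0.562%). None passed for the change of the genotype effect with age (0.492%) or with sex (0.0156%).

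**Figure D4:**
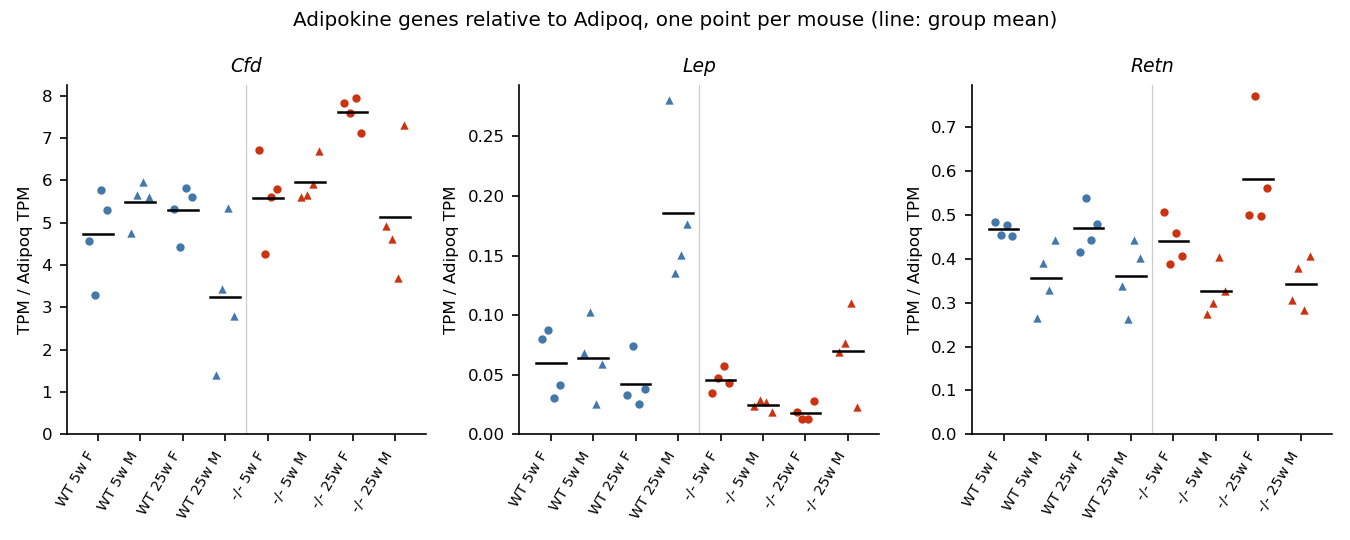
TPM of Cfd, Lep and Retn divided by TPM of Adipoq (linear axis from 0) in the 8 groups, 1 point per mouse. The 4 WT 25-week males have the highest Lep ratios, 0.135 to 0.280, and the lowest Cfd ratio of all libraries, 1.39, is in the same group.

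At 25 weeks Cfd was higher relative to Adipoq in Col6a2-/- mice. The ratio of Cfd to Adipoq TPM was 5.32, 4.43, 5.81 and 5.60 in WT females and 7.84, 7.59, 7.93 and 7.11 in Col6a2-/- females, with no overlap. It was 1.39, 3.42, 5.33 and 2.80 in WT males and 4.93, 4.62, 3.70 and 7.31 in Col6a2-/- males, which overlapped. How many of all genes separate as in the females was not counted. In the limma model, Cfd did not pass within females (0.53, adjusted p = 0.967) or within males (0.83, adjusted p = 0.132). Over both sexes Cfd rose in the model by 0.68 relative to Adipoq (SE 0.18, interval 0.32 to 1.04, adjusted p = 0.0373). Without replicate 1 of the 25-week WT males the value was 0.45 (adjusted p = 0.122), and the call was also lost when any of 10 other 25-week libraries was left out (all 4 WT females, WT male 4, Col6a2-/- females 1, 3 and 4, and Col6a2-/- males 1 and 4; 0.59 to 0.71). With Lipe as covariate it was 0.58 (adjusted p = 0.123), and with Plin1 and Cdo1 the call held.

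Lep was lower relative to Adipoq in 25-week Col6a2-/- mice. The Lep ratio was 0.0332, 0.0738, 0.0256 and 0.0377 in WT females and 0.0188, 0.0128, 0.0131 and 0.0276 in Col6a2-/- females. It was 0.280, 0.135, 0.151 and 0.176 in WT males and 0.0693, 0.0768, 0.110 and 0.0229 in Col6a2-/- males. The males did not overlap, and the 4 WT males were above every other library of the study. How many of all genes separate in this way was not counted. Within sexes, Lep did not pass in the limma model (-0.57 in females, adjusted p = 0.994, and -0.90 in males, adjusted p = 0.148). In the model Lep fell by 0.74 relative to Adipoq (SE 0.20, interval -1.15 to -0.33, adjusted p = 0.0445), a call that was lost with each of the other covariates (Plin1 -0.69, Lipe -0.70 and Cdo1 -0.72, with adjusted p of 0.109, 0.154 and 0.0878). It was also lost without any 1 of 15 libraries: 5-week WT males 1 and 3, 25-week WT females 1, 2 and 4 and males 1 and 4, 5-week Col6a2-/- female 3 and male 3, and 25-week Col6a2-/- females 1 to 4 and males 1 and 4 (-0.84 to -0.55). The Lep call was lost as well with a replicate block (-0.72, adjusted p = 0.0545) and with no filter on TPM (-0.74, adjusted p = 0.130).

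Between 5 and 25 weeks in Col6a2-/- mice, Fabp4 fell relative to Adipoq by 0.46 (SE 0.11, adjusted p = 0.00259). The ratio of Fabp4 to Adipoq TPM ran from 4.63 to 12.1 at 5 weeks and from 3.38 to 5.35 at 25 weeks. It was itself higher where Adipoq was low, at 16.8 to 33.3 in the 4 WT libraries under 5 TPM. In WT the modelled change of Fabp4 was -0.18 (adjusted p = 0.281). The age effect did not pass for a difference between genotypes (-0.28, adjusted p = 0.775). The Fabp4 call in Col6a2-/- mice held in all 45 alternative settings, other covariates included, with a highest adjusted p of 0.0383. Pparg fell by 0.31 (SE 0.12, adjusted p = 0.0452), a call lost in 21 of 45 settings, among them without 5-week WT females 3 or 4 or male 1, 25-week WT females 3 or 4 or male 2, 5-week Col6a2-/- females 1, 2 or 3 or males 1, 3 or 4, or 25-week Col6a2-/- females 3 or 4 or males 2 or 4 (-0.37 to -0.25 when leaving out 1 library). In the comparison without a covariate, where 34.2% of all tested genes were called and most of these fell, 9 of 10 macrophage and 6 of 11 endothelial markers fell, and their part in the Fabp4 result was not tested.

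By sex, over both ages, Lep was higher in males relative to Adipoq by 0.57 (SE 0.14, adjusted p = 0.0197) and Retn was lower, by -0.44 (SE 0.078, adjusted p = 0.000652). By its group means, the Lep ratio was clearly higher in males only at 25 weeks. The means at 25 weeks were 0.186 in males and 0.0426 in females of WT, and 0.0698 and 0.0181 in Col6a2-/- mice. In the 25-week Col6a2-/- mice the sexes overlapped, with male 4 at 0.0229 and female 4 at 0.0276. At 5 weeks the sexes overlapped in WT (means 0.06365 in males and 0.0599 in females). All 5-week Col6a2-/- males, at 0.01855 to 0.02888, were below all 5-week Col6a2-/- females, at 0.03437 to 0.05762. Such separations were not counted over all genes. Lep lost its call with Plin1 (0.50, adjusted p = 0.0975) and Lipe (0.53, adjusted p = 0.142) as covariate and kept it with Cdo1 (0.74). The ratio of Retn to Adipoq ran from 0.388 to 0.772 in females and from 0.262 to 0.444 in males. The Retn result depended on the gene used as covariate: with Lipe it was -0.45 (adjusted p = 0.120) and with Cdo1 -0.067 (adjusted p = 0.826), while Plin1 gave -0.53 and kept the call. Relative to Plin1, Cfd also passed for sex (-0.39, adjusted p = 0.0220). Relative to Cdo1, Adipoq itself was higher in males by 0.39 (adjusted p = 0.0295) and Plin1 by 0.42 (adjusted p = 0.00128).

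The sex difference relative to Adipoq also changed with age. For Lep it rose by 1.25 from 5 to 25 weeks (SE 0.27, interval 0.69 to 1.80, adjusted p = 0.0131), and for Cfd it fell by 0.90 (SE 0.24, interval -1.40 to -0.41, adjusted p = 0.0386). The Lep call held in all 32 fits that left out 1 library and was lost with Lipe as covariate (1.09, adjusted p = 0.0732). The Cfd call held with each other covariate. It was lost without any 1 of 18 libraries: 5-week WT females 1 and 2 and males 1 to 3, 25-week WT females 1, 3 and 4, 5-week Col6a2-/- females 3 and 4 and males 1 to 3, and 25-week Col6a2-/- females 1, 3 and 4 and males 2 and 3 (-0.92 to -0.80).

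Other genes of the fat cell were taken from hand-written lists, to be read against the 25.4% of all tested genes called at 5 weeks and the 4.70% at 25 weeks. At 5 weeks the share called was below 25.4% in each of the fat cell lists. Of 10 adipogenic factors, 1 rose at 5 weeks (Klf5, 0.34) and 1 at 25 weeks (Ebf2, 0.41) in Col6a2-/- mice, with list medians of 0.12 and 0.14. Of 13 further droplet and lipolysis genes, 2 rose at 5 weeks, the droplet coat genes Plin2 (0.55) and Plin3 (0.41), and 0 changed at 25 weeks, with medians of 0.30 and 0.23. Of 19 genes of lipid uptake and synthesis, 2 rose at 5 weeks, Fabp5 (0.66), another fatty acid binding protein, and Cd36 (0.39), a fatty acid transporter, and 0 changed at 25 weeks, with medians of 0.21 and 0.37. Of 16 tested secreted and surface genes of fat cells and 4 receptors of adipokines, 0 changed with genotype at either age. Of 5 tested thermogenic genes, 1 rose at 5 weeks (Dio2, 0.80) and 0 changed at 25 weeks. The medians over all tested genes were 0.15 at 5 weeks and 0.082 at 25 weeks. When 1 library was left out, the calls of Plin2, Plin3, Fabp5 and Dio2 held in all 32 fits, and those of Klf5, Cd36 and Ebf2 were lost in 5, 18 and 12 of 32 fits.

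With age, 34.2% of all tested genes were called in Col6a2-/- mice and 19.8% in WT. In Col6a2-/- mice 4 of the 16 secreted and surface genes rose (Adig, 0.995; Adrb3, 0.88; Sncg, 0.88; Nampt, 0.34) and 1 fell (Apln, -0.98). Of the 19 lipid genes, 4 rose (Lpl, 0.64; Me1, 0.51; Slc2a4, 0.37; Lpin1, 0.36) and 2 fell (Fabp5, -0.96; Gpd1, -0.67). When 1 library was left out, the calls of Adig, Adrb3 and Me1 were lost in 5, 4 and 5 of 32 fits. The brown fat uncoupling gene Ucp1 entered the test only through 4 libraries of 5-week mice. The filter thus selected it by high 5-week values, and only its values are given. In Col6a2-/- mice Ucp1 was at 4.31, 0, 20.5 and 0.205 TPM in 5-week females and at 1.12, 0.0319, 0 and 0.0229 TPM in 5-week males, and at 25 weeks it was listed at 0 in 7 libraries and at 0.194 TPM in 1. In WT mice 1 secreted gene rose (Sncg, 0.83) and 1 fell (Apln, -1.18), while of the lipid genes 2 rose (Cd36, 0.44; Lpin1, 0.35) and 2 fell (Gpd1, -0.60; Fabp5, -0.80). In both genotypes the nuclear receptor Rxra rose (0.31 in WT and 0.37 in Col6a2-/- mice) and the droplet gene Fitm1 (-0.31 and -0.30) and the adiponectin-binding cadherin Cdh13 (-0.31 and -0.47) fell, calls that held in all 32 fits. Cebpd passed in WT (-0.70) and lost its call in 20 of 32 fits. In WT the calls of Sncg and Cd36 were lost in 6 and 8 of 32 fits. In the limma test of whether the age effect differed between genotypes, 0 of 67 tested genes of the fat cell lists passed, and 1 (Prdm16) had an unadjusted p under 0.05. Between the sexes, 2 of 10 adipogenic factors were lower and 1 of 16 secreted and surface genes was higher in males (3.05% of all tested genes). For the change of the sex difference with age, 1 of 16 secreted and surface genes passed, with a negative value (3.43%). No gene of the other fat cell lists passed for sex.

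Markers of other cells were counted in the same way, against the 25.4% of all tested genes called at 5 weeks and 4.70% at 25 weeks. All 10 macrophage markers rose at 5 weeks (Lyz2, 1.97; Adgre1, 1.43; C1qb, 1.37) and 8 of 10 at 25 weeks, and their summed level over the groups was 47.9 to 128 TPM in WT and 111 to 386 TPM in Col6a2-/- libraries. Of 6 tested progenitor markers, 4 rose at 5 weeks (Ly6a, 0.67; Cd34, 0.40; Pdgfra, 0.32; Pdgfrb, 0.32) and 2 at 25 weeks (Pdgfra, 0.58; Cd34, 0.51), and the 5-week calls of Cd34, Pdgfra and Pdgfrb were lost in 3, 10 and 1 of 32 fits that left out 1 library. Of 11 endothelial markers, 5 rose at 5 weeks and 0 at 25 weeks, and of 8 muscle fibre genes 5 fell at 5 weeks and 0 changed at 25 weeks. When 1 library was left out, 5-week calls were lost for Myh4 in 19 of 32 fits, for Ptprb in 9, Cdh5 in 8 and Tie1 in 3 of the endothelial markers, and for the macrophage marker Mrc1 in 9. At 25 weeks the calls of Adgre1 and Mrc1 were lost in 8 fits each and that of Cd34 in 4, and the other 6 macrophage calls held in all 32. Among 10 skin and epithelial markers only Krt8 and Krt18 passed the filter on low values, and each did so only through the 5-week Col6a2-/- libraries. The filter thus selected them by high values there, so only the levels of the list are given. The summed level of the 10 markers at 5 weeks was 0.742 to 1.58 TPM in WT and 3.07 to 19.2 TPM in Col6a2-/- libraries. At 25 weeks it was 0.487 to 1.27 TPM in WT and 0.679 to 1.70 TPM in Col6a2-/- libraries. The part of these cell types in the differences of Fabp4, Plin4 and the other members was not tested.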

How the data were processed

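RNA-seq was analysed from 32 quadriceps libraries, 4 mice in each of 8 groups of genotype, age and sex. Per the labels, libraries were made with an Illumina TruSeq RNA kit and sequenced paired-end. Per the submitters' processing notes, FastQC, MultiQC, Trimmomatic, HISAT2, SAMtools and StringTie were used, with builds GRCm38 and mm10; versions and the annotation are not given in the sources used here. The authors deposited a table per library with coverage, FPKM and TPM for each gene; the deposited TPM was analysed, and the deposited coverage (a signal) and FPKM only gave a relative depth. Without counts, no counting interval could be given.

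TPM was summed per gene identifier. The 12817 genes that reached 1 TPM in 4 or more libraries were tested as log2(TPM + 1), with a pseudocount of 1, in limma 3.58.1 (R 4.3.3) with 8 group means, an intensity trend and two-sided Benjamini-Hochberg adjusted p-values over all tested genes, at 0.05. Fold changes on this scale understate those of low genes. Steps were tested on simulated data. Named genes were the 9 members, the 10 genes most like their mean, and list genes, chiefly those that passed for genotype or age. The lists cover adipogenic factors, droplet and lipolysis, lipid uptake and synthesis, secreted and surface genes, adipokine receptors and thermogenic genes. They also cover progenitors, endothelium, macrophages, skin epithelium and muscle fibres. Members and lists were chosen with earlier results of these data known. The model with Adipoq as covariate was added after the values were seen and drops the row of Adipoq (12816 genes). Each mouse gave 1 library, per the labels. Alternatives were other scalings, filters, pseudocounts, array weights, a fit per age, a replicate block, other covariates and leaving out each library. Leaving out libraries for the list genes was added after the data were seen.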

Additional observations from a re-analysis of the deposited data

Results flagged for a closer look

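The sex difference of 2 members relative to Adipoq differed between ages by a test of the difference itself, with Adipoq as covariate in limma. For Lep the male minus female difference rose by 1.25 on the log2 scale from 5 to 25 weeks (adjusted p = 0.0131). For Cfd the difference changed by -0.90 (adjusted p = 0.0386). Without Adipoq as covariate neither passed (Lep 1.14, adjusted p = 0.123; Cfd -1.11, adjusted p = 0.344). A search for single libraries far from the other 3 of their group found none in 72 sets of 4 values (9 members in 8 groups), by Dixon's test.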

How the results depend on the processing

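Over the alternative settings of a chosen set of single-member results, 1589 fits kept the direction and side of the threshold, 80 lost a call, 11 gained one and 14 changed sign. All 80 losses fell on the calls made relative to Adipoq, each tried in 44 or 45 settings. The other results in this count had no call to lose. In the tests without a covariate, 0 members passed in the reported settings. With array weights, 1 member passed for genotype at 25 weeks (Cfd, 1.60), 3 for sex (Plin4, -0.39; Cfd, -1.43; Retn, -1.38), 1 for sex by age (Lep, 1.30) and 2 for genotype in 25-week males (Adipoq, 1.88; Cfd, 2.59). A separate fit per age passed 1 at 25 weeks (Cfd, adjusted p = 0.0313) and 1 in 25-week males (Cfd, adjusted p = 0.0200). Leaving out 1 library gave 0 to 1 members for sex by age (1 without replicate 2 of the 5-week Col6a2-/- females: Lep, 1.23, adjusted p = 0.0495) and 0 to 1 in 25-week males (1 without replicate 4 of the WT males: Cfd, 2.92, adjusted p = 0.0498).

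Relative to Adipoq, the members that passed for genotype at 5 weeks numbered 1 with the replicate block, 1 with array weights, 1 with Plin1 as covariate and 0 to 1 when leaving out a library. At 25 weeks they numbered 0 with no filter, 1 with a filter at 5 TPM, 1 with the replicate block, 1 with Plin1, 0 with Lipe, 1 with Cdo1 and 0 to 2 when leaving out a library. For age they numbered 0 to 1 in WT (1 without replicate 3 of the 25-week males) and, in Col6a2-/- mice, 1 with no filter, 5 TPM, rescaling, median-of-ratios or quantile scaling and 1 to 2 when leaving out a library. For sex they numbered 1 with no filter, 1 at 5 TPM and 0 with Lipe. With Plin1 the count for sex stayed at 2, with Lep lost and Cfd gained. With Cdo1 as covariate, which leaves 9 members to test, 3 passed for sex (Adipoq, Plin1 and Lep) and 3 for age in Col6a2-/- mice (Fabp4, Pparg and Retn). For sex by age they numbered 1 with no filter, 5 TPM, rescaling or Lipe and 1 to 2 when leaving out a library. In 5-week females they numbered 1 with array weights and 0 to 1 when leaving out a library (1 without replicate 4 of the Col6a2-/- mice). In 25-week males they numbered 1 with Plin1, 1 with Cdo1 and 0 to 1 when leaving out a library (1 without replicate 3 of the WT mice). Lep was not tested at 5 TPM. The cause of these changes was not tested.

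The sign of Plin4 changed at 5 weeks with median-of-ratios (-0.13) and quantile scaling (-0.040), and at 25 weeks with rescaling without mitochondrial and Rn7s genes (-0.037), median-of-ratios (-0.10) and quantile scaling (-0.0085). Leaving out a library gave -0.043 to 0.22 for Plin4 and -0.055 to 0.44 for Retn at 5 weeks and -0.058 to 0.10 for Plin4 at 25 weeks. Retn was negative without replicate 2 of the 5-week WT females or replicate 3 of the 5-week WT males. The median of all genes at 5 weeks moved from 0.15 to -0.012 with median-of-ratios and to -0.025 with quantile scaling. All-gene calls at 25 weeks went from 603 to 343 with no filter, 344 at 5 TPM, 1384 with median-of-ratios, 1087 with a fit per age and 1967 with array weights. At 5 weeks they went from 3253 to 1553 at 5 TPM, where 6573 genes were tested, 1878 with a fit per age and 1897 with the exact permutation test. For sex they went from 391 to 258 at 5 TPM, 803 with median-of-ratios, 828 with quantile scaling and 925 with array weights.

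Over all tested genes, mice with the same replicate number did not deviate together (r -0.340 to 0.349, median 0.0322, over 112 pairs; 10 of 32 libraries were closest to their own number), and the labels tie a number to nothing shared, so the numbers were not taken to pair the mice. For the mean log2 level of the 9 members, replicate 1 was above its group mean in 8 of 8 groups (by 0.15 to 0.94) and replicate 2 was below it in 6 of 8, while replicates 3 and 4 were above in 4 and 5 of 8. With a replicate block the counts without a covariate stayed at 0 (Cfd at 25 weeks 1.51, adjusted p = 0.0821; in 25-week males 2.42, adjusted p = 0.0562), and Lep at 25 weeks relative to Adipoq was -0.72 (adjusted p = 0.0545).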
